A study of Mus musculus with 18 samples.

Results

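Cytotoxic lymphocytes kill by releasing granules onto a target cell or by presenting death ligands on their surface. In the granule, the proteoglycan serglycin (Srgn) holds the granzymes, which are serine proteases, and perforin (Prf1) lets them into the target. Fas ligand (Fasl) and TRAIL (Tnfsf10) are TNF-family ligands that bind death receptors, and Serpinb9 inhibits granzyme B and protects the cell that carries it. Invariant natural killer T (iNKT) cells are T cells that recognize lipid antigens on CD1d, and the NKT1 subset shares much of its gene program with natural killer cells. This account describes 10 such genes, chosen by name from the 23337 genes in the count table: the granzymes Gzma, Gzmb and Gzmk, Prf1, the granule membrane protein gene Nkg7, the cathepsin gene Ctsw, Srgn, Fasl, Tnfsf10 and Serpinb9. All 10 had counts in some library, and 9 passed the filter on low counts; Gzmk did not.

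RNA was sequenced from NKT1, NKT2 and NKT17 cells of the thymus, each from WT and SKG mice on the BALB/c background, with 3 libraries in each of the 6 groups. SKG mice carry a spontaneous point mutation in Zap70, the kinase that relays the T cell receptor signal, which weakens its function. According to the study's methods, SKG mice were crossed to BALB/cJ mice and WT and SKG F3 mice were bred from separately kept F2 offspring. No transgene or treatment is named for these samples, and the age of the mice is not given in the labels. The subsets were sorted on surface proteins as tetramer-positive cells, NKT1 as ICOS-low and CD49a-positive, NKT2 as ICOS-high, CD4-high and TCRβ-high without CD49 or Sdc-1, and NKT17 as ICOS-high and Sdc-1-positive without CD49. The labels do not say how many mice a library holds, so the p-values measure the spread between libraries, which may be partly technical.

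The libraries held 4391029 to 8895917 counts and 11657 to 13071 genes with a count. The subset markers followed the sort. Tbx21, which encodes T-bet, averaged 548 in WT NKT1 and 480 in SKG NKT1, as counts scaled to library size (CPM), against 0.824 to 28.2 CPM in the other 4 groups. The 6 NKT17 markers summed to 2161 to 2316 CPM in the NKT17 libraries and to at most 13.9 CPM in the others. Zbtb16, which encodes PLZF, was lowest in NKT1, at 36.7 CPM in WT and 46.0 CPM in SKG, and lay between 110 and 194 CPM in the other 4 groups. Markers of other cells were low but not evenly spread. The summed CD8 T cell markers Cd8a and Cd8b1 reached 12.9 to 46.6 CPM in the SKG NKT17 libraries against 4.10 to 11.8 CPM in WT NKT17, and 8 B cell and myeloid markers summed to 25.3 to 45.7 CPM against 10.7 to 13.0 CPM, with Ms4a1, Csf1r and Itgax at 0 in SKG NKT17. Because these are bulk samples, more cells with a transcript and more transcript per cell cannot be told apart.

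All values below are CPM scaled by TMM library factors, as mean ± SD (n = 3), unless another scale is named. A gene is called where the adjusted p of edgeR's quasi-likelihood test, corrected over all 11118 genes tested, is under 0.1 and the fold change is at least 1.5.

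In the NCBIM37 (mm9) annotation the 10 genes lie on 7 chromosomes, all of them protein coding. Gzma (chr13:113884033-113891187) and Gzmk (chr13:113961816-114016116) are neighbors on the minus strand, 70628 bases apart, and Serpinb9 (chr13:33095119-33109826) is far from them on the same chromosome. Prf1 (chr10:60760584-60767011) and Srgn (chr10:61956581-61990199) share chromosome 10. Gzmb is at chr14:56877693-56881097, Nkg7 at chr7:50692443-50693616, Ctsw at chr19:5465240-5468498, Fasl at chr1:163710820-163718626 and Tnfsf10 at chr3:27215950-27241349.

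The promoters of Fasl, Prf1 and Nkg7 are shown because these 3 genes were the ones that rose in SKG NKT17 cells. Each is the RefSeq window on GRCm38.p6 from 250 bases before to 50 bases after the start of the gene, 5′ to 3′ on the gene's strand, and capitals mark matches on either strand to the letters of 4 motifs known from lymphocytes, RUNX (TGTGGT), T-box (GGTGTGA), AP-1 (TGANTCA) and NFAT (GGAAAA). Fasl is at chr1:161788446-161788745 on the minus strand, Prf1 at chr10:61297586-61297885 on the plus strand and Nkg7 at chr7:43436888-43437187 on the plus strand.
Fasl: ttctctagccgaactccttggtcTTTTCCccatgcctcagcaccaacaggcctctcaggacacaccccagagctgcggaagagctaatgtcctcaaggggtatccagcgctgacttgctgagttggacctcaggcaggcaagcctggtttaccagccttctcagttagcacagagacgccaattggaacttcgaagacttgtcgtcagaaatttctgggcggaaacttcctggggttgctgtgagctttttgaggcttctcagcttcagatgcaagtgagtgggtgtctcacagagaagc
Prf1: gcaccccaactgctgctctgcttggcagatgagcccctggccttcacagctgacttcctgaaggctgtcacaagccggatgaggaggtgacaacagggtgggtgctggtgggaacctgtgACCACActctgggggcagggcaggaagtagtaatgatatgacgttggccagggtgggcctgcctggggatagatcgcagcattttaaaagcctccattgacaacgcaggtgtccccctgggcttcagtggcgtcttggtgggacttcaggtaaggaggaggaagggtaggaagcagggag
Nkg7: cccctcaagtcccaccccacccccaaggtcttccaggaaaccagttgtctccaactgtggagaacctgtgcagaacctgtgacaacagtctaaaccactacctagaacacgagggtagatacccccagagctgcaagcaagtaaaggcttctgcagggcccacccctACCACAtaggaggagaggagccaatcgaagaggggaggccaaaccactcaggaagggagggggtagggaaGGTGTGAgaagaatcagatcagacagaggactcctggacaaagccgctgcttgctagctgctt

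The 3 windows had no motif in common. The Fasl window held an NFAT match, the Prf1 window a RUNX match, and the Nkg7 window a RUNX and a T-box match. A window was given for 9 of the 10 genes, with 2 for Srgn, so that 10 windows were searched; Ctsw had none. RUNX letters were in 6 of the 10 windows (Gzma, Gzmb, Prf1, Nkg7, Serpinb9 and 1 of the Srgn windows) against 16.8% of all 32851 windows of the same length. T-box letters were in 2 (Gzmk and Nkg7) against 4.0%, NFAT letters in 4 (Gzma, Srgn, Fasl and Serpinb9) against 23.4%, and AP-1 letters in Gzmb alone against 7.8%. None of the matches overlapped another. A match is a description of the letters, not of binding.

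NKT1 cells expressed the cytotoxic genes at the highest level in both genotypes, as the plot of levels in each library shows. The 10 genes together took 1.03% ± 0.0752 of all counts in WT NKT1 and 0.971% ± 0.0167 in SKG NKT1, against 0.202% ± 0.0119 and 0.194% ± 0.0179 in NKT2 and 0.155% ± 0.0119 and 0.148% ± 0.00925 in NKT17. NKT1 exceeded NKT2 by the call in 8 of the 9 tested genes, and exceeded NKT17 in 8 as well, in WT and in SKG, with Srgn the exception each time. As background, 27.5% of all tested genes were called between NKT1 and NKT2 in WT (13.7% toward NKT1) and 18.7% in SKG (10.0% toward NKT1). Between NKT1 and NKT17 the shares were 24.7% in WT (11.2% toward NKT1) and 22.8% in SKG (10.2% toward NKT1). Over the 9 genes the median log2 fold change of NKT1 over NKT2 was 5.31 in WT and 2.21 in SKG, and that of NKT1 over NKT17 was 5.67 in WT and 2.88 in SKG, where the medians over all tested genes lay between -0.02 and 0.00.

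**Figure D1:**
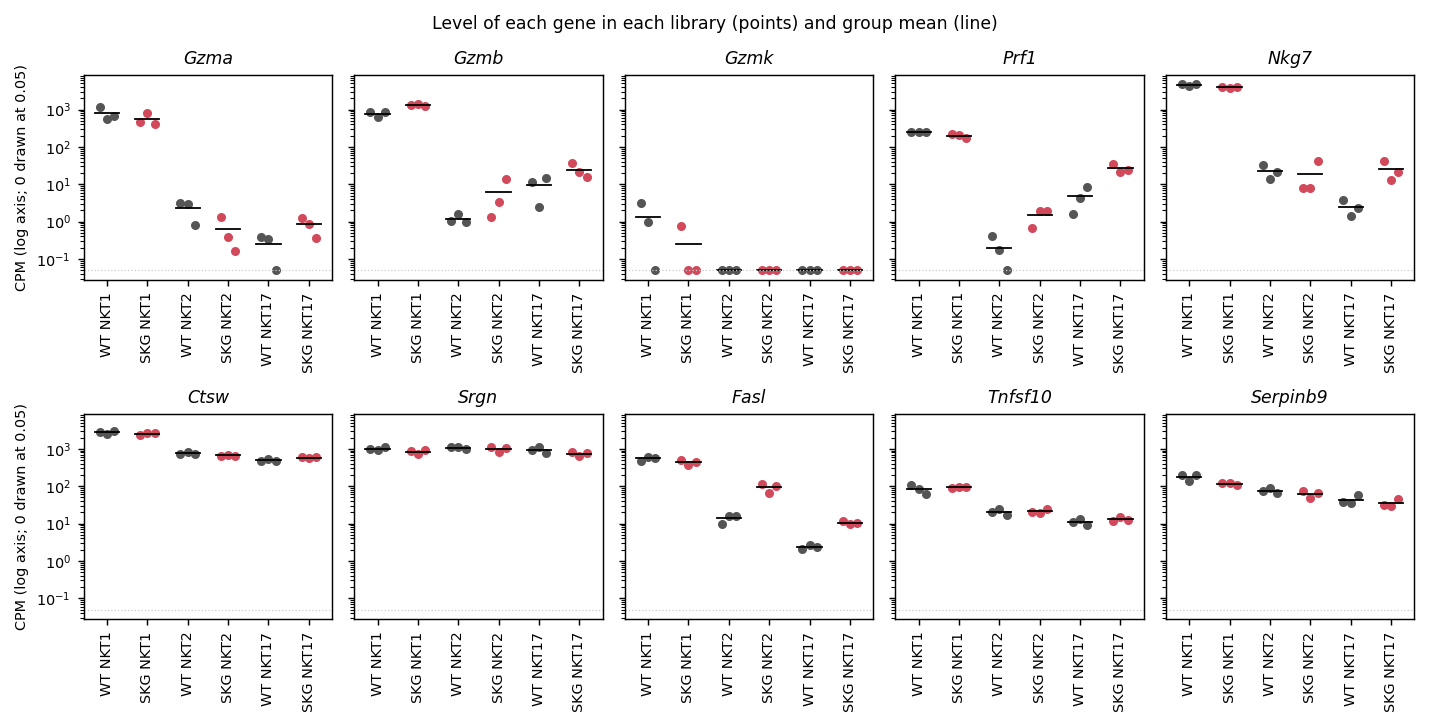
Level of each of the 10 genes in each library, in CPM on a log axis; points are libraries (gray WT, red SKG), lines are group means (n = 3), and a count of 0 is drawn at 0.05. Gzma, Gzmb, Prf1 and Nkg7 are over 100 CPM in NKT1 libraries only, Srgn is level across all 6 groups, and Fasl is higher in SKG than in WT in every library of NKT2 and of NKT17.

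Per length of transcript (CPM per kilobase of exon, RPKM), Nkg7 was the most abundant of the 10 in NKT1, at 5268 RPKM in WT and 4465 RPKM in SKG, followed by Ctsw at 2253 and 2063 RPKM. The granzymes came next, with Gzma at 836 RPKM ahead of Gzmb at 548 RPKM in WT NKT1, and Gzmb at 949 RPKM ahead of Gzma at 605 RPKM in SKG NKT1. Outside NKT1, Ctsw and Srgn held the top 2 places in all 4 groups, between 337 and 622 RPKM, and the gene in the next place did not exceed 48.6 RPKM.

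The granule proteases differed in how strictly they marked NKT1. Gzma, a granzyme with trypsin-like specificity, was at 1144, 549 and 661 CPM in the WT NKT1 libraries and at 468, 817 and 419 CPM in the SKG NKT1 libraries, with the libraries of the 2 genotypes overlapping. It was at 0.807 to 3.06 CPM in WT NKT2, 0.160 to 1.32 CPM in SKG NKT2, 0 to 0.390 CPM in WT NKT17 and 0.375 to 1.27 CPM in SKG NKT17. The log2 fold change of NKT1 over NKT2 in WT was 8.45 (SE 0.51, edgeR adjusted p = 2.19e-08). The WT NKT17 libraries held 4 Gzma reads in all against 16101 in WT NKT1, a ratio of 3808 (95% interval of the counting error, 1487 to 13976).

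Gzmb encodes granzyme B, which cleaves caspases and their substrates. Its WT NKT1 libraries were at 851, 637 and 845 CPM and its SKG NKT1 libraries at 1334, 1434 and 1268 CPM, so that every SKG library lay above every WT library. The fitted log2 change was 0.79 (SE 0.46, 95% interval -0.21 to 1.79), which edgeR's test did not call over all genes (adjusted p = 0.498). A fit of only the 6 NKT1 libraries called it at a log2 change of 0.81 (edgeR adjusted p = 0.00308), and no other of the 15 alternatives for that result did (adjusted p 0.00308 to 0.688 over all of them). In NKT2 the gene was near its floor in WT, at 1.02, 1.57 and 0.969 CPM, and in SKG at 1.32, 3.33 and 13.5 CPM. In NKT17 it was at 11.3, 2.43 and 14.3 CPM in WT and at 36.4, 21.3 and 15.2 CPM in SKG, a separation of all libraries that was not called (log2 change 1.37, SE 0.58, adjusted p = 0.190). In order of level, SKG NKT1 came before WT NKT1, SKG NKT17, WT NKT17, SKG NKT2 and WT NKT2; WT NKT17 and SKG NKT2 overlapped, as did SKG NKT2 and WT NKT2.

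Gzmk, a granzyme that has been linked to memory-like T cells, was close to undetected. It had 26, 5 and 0 counts in the WT NKT1 libraries, 4, 0 and 0 in SKG NKT1, and 0 in all 12 NKT2 and NKT17 libraries. It was not tested, and with 3 counts as the limit that a count of 0 allows, levels up to 0.411 to 0.660 CPM, depending on the library, could have gone unseen there.

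Prf1 had the smallest spread relative to its mean of the 10 genes among WT NKT1 libraries (coefficient of variation 2.00%). It was at 257, 248 and 256 CPM there and at 227, 206 and 173 CPM in SKG NKT1. All 3 SKG libraries lay below the WT libraries, and the fitted change was not called (log2 change -0.33, SE 0.28, adjusted p = 0.691). In WT NKT2 the 3 libraries held 2, 1 and 0 Prf1 counts. WT NKT17 libraries were at 1.56, 4.17 and 8.50 CPM, above those of WT NKT2 without overlap. The gene was called higher in NKT17 than in NKT2 in WT, with 94 reads against 3 (ratio 29.0, counting interval 9.62 to 143, edgeR adjusted p = 2.76e-04), and in SKG (log2 fold change 4.11, SE 0.44, adjusted p = 2.56e-06). The fitted WT log2 fold change was 4.64, and it was 5.58 without NKT2 replicate 1, 4.03 without NKT2 replicate 3 and 3.87 without NKT17 replicate 3.

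Nkg7 encodes a small membrane protein of cytotoxic granules that is needed for their efficient release. It was at 4877, 4268 and 4731 CPM in WT NKT1 and at 3927, 3765 and 4068 CPM in SKG NKT1, lower in SKG in each library without being called (log2 change -0.24, SE 0.48, adjusted p = 0.908). WT NKT2 libraries were at 32.7, 13.6 and 20.8 CPM and SKG NKT2 libraries at 8.14, 8.02 and 41.1 CPM. WT NKT17 held the lowest level, at 3.71, 1.39 and 2.33 CPM, and was called below WT NKT2 (log2 fold change -3.18, SE 0.77, edgeR adjusted p = 0.00886).

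Ctsw and Srgn were the broadly expressed genes of the group. Ctsw, a papain-like cathepsin found in cytotoxic cells, ranged from 2509 to 2966 CPM in WT NKT1 and from 2374 to 2648 CPM in SKG NKT1, and was still at 641 to 840 CPM in the 6 NKT2 libraries and 474 to 587 CPM in the 6 NKT17 libraries. It was 3.62-fold higher in NKT1 than in NKT2 in WT (SE of log2 0.10, adjusted p = 1.13e-12) and 5.61-fold higher than in NKT17 (SE of log2 0.10, adjusted p = 9.20e-15). Srgn stayed between 652 and 1142 CPM in all 18 libraries. Its fitted differences between subsets did not exceed 0.44 on the log2 scale, and the widest, between NKT17 and NKT2 in SKG (-0.44, SE 0.14, adjusted p = 0.0219), was under the 1.5-fold minimum.

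The death ligands were graded across the subsets. In WT, Fasl was at 486, 597 and 585 CPM in NKT1, at 10.0, 16.1 and 15.7 CPM in NKT2 and at 2.15, 2.61 and 2.33 CPM in NKT17. No libraries of these 3 groups overlapped, and NKT17 was 5.88-fold below NKT2 (SE of log2 0.25, adjusted p = 8.98e-08). Tnfsf10 was at 61.4 to 108 CPM in WT NKT1 and 87.8 to 95.2 CPM in SKG NKT1, at 16.6 to 24.8 CPM across the NKT2 libraries and at 8.91 to 14.8 CPM across the NKT17 libraries. It differed between NKT17 and NKT2 by -0.87 in WT and -0.74 in SKG on the log2 scale (adjusted p = 0.00538 and 0.0167).

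Serpinb9 followed the same order at a lower contrast, with 180 ± 38.5 CPM in WT NKT1, 76.7 CPM in WT NKT2 and 43.3 CPM in WT NKT17. NKT1 was 2.35-fold above NKT2 (SE of log2 0.20, adjusted p = 4.41e-05) and 4.16-fold above NKT17 (SE of log2 0.20, adjusted p = 5.09e-08). A paralog, Serpinb9b, was counted separately, and reads that match both copies may have been lost or split, which was not examined.

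Between NKT17 and NKT2, 8 of the 9 tested genes were called in WT, against 20.0% of all tested genes (11.0% higher and 8.97% lower in NKT17). Gzmb and Prf1 were higher in NKT17, and Gzma, Nkg7, Ctsw, Fasl, Tnfsf10 and Serpinb9 were lower. The 8 include Gzma and Prf1, which did not pass the filter when only these 6 libraries were fitted. Both entered the test through their levels in other groups, so the count is not fully comparable with the share over all genes. The calls of Gzma, Gzmb and Ctsw were lost without single libraries. Gzma lost its call without any 1 of 5 of these 6 libraries (adjusted p up to 0.202), Gzmb without NKT2 replicate 3 or NKT17 replicate 3 (adjusted p = 0.106 and 0.131), and Ctsw without NKT2 replicate 2, where its fold fell under 1.5 (log2 fold change -0.57). In SKG 5 of the 9 were called, against 18.8% of all tested genes (10.5% higher and 8.27% lower in NKT17), with Gzmb and Prf1 again higher and Fasl, Tnfsf10 and Serpinb9 lower in NKT17. Gzma, among the 9 but not called in SKG, again did not pass the filter when only the libraries compared were fitted. The Gzmb call in SKG was lost without NKT17 replicate 1, NKT2 replicate 1 or NKT2 replicate 2 (adjusted p = 0.173, 0.127 and 0.141) and in a fit of only the libraries compared (adjusted p = 0.131); without NKT2 replicate 3 its log2 fold change went from 1.92 to 3.37 (adjusted p = 0.00402). Nkg7, lower in NKT17 than in NKT2 in WT, showed no called difference in SKG (log2 fold change 0.37, SE 0.57, adjusted p = 0.746); without SKG NKT2 replicate 3, the library with 41.1 CPM, it was called higher in SKG NKT17 (1.66, adjusted p = 0.0330).

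The SKG mutation was set against WT within each subset. In NKT1, 1 of the 9 tested genes was called, Serpinb9, which was lower in SKG; over all tested genes 3.27% were called and 1.82% were lower. Serpinb9 was at 202, 136 and 204 CPM in WT and at 125, 119 and 107 CPM in SKG, with every SKG library below every WT library, and its log2 change was -0.63 (SE 0.20, edgeR adjusted p = 0.0983). The adjusted p lay just under the threshold and ranged from 0.0427 to 0.287 over 15 alternatives, of which 4 kept the call. It was lost without any of the 3 SKG libraries or WT replicate 1 or 3. The libraries of the 2 genotypes did not overlap for 4 of the 9 genes, against 16.3% of all tested genes: Gzmb was higher and Prf1, Nkg7 and Serpinb9 were lower in SKG. The other fitted changes in NKT1 were between -0.47 and 0.13 on the log2 scale, and the 95% intervals of Ctsw (-0.32 to 0.07), Srgn (-0.51 to 0.05), Fasl (-0.69 to -0.02) and Tnfsf10 (-0.28 to 0.53) leave out a change of more than 0.69 in either direction. The median of the 9 genes was -0.24, against -0.01 over all tested genes. Natural killer and innate lymphoid cell markers, which NKT1 cells share, summed to 256 to 316 CPM in SKG NKT1 against 438 to 859 CPM in WT NKT1, with 2 of 4 tested called lower, and their part in these values was not tested.

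**Figure D2:**
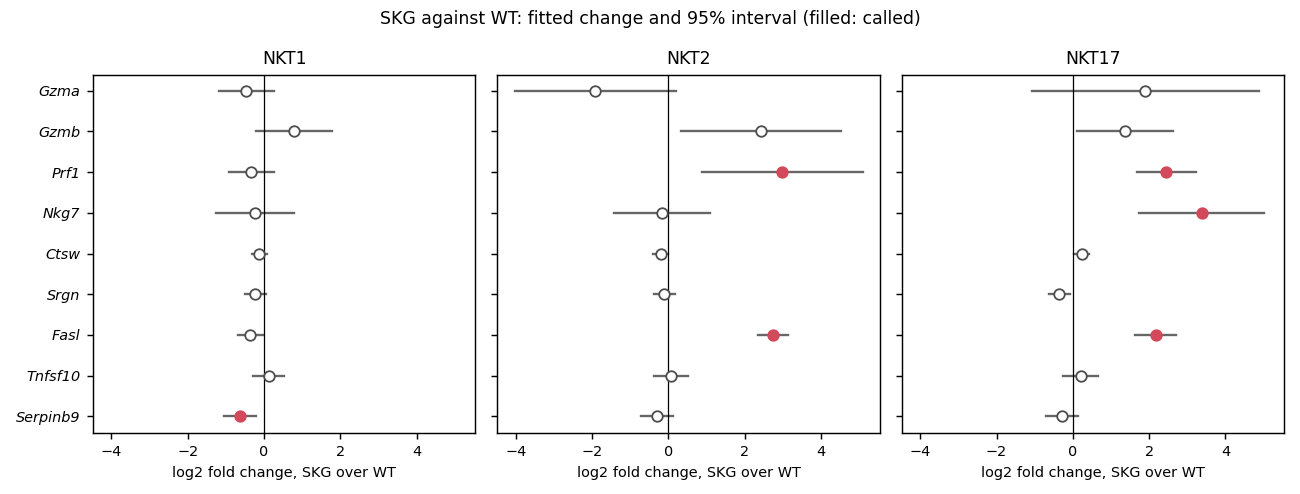
Fitted log2 fold change of SKG over WT for the 9 tested genes in each subset; points are edgeR estimates from 3 libraries per group, bars their 95% intervals, and filled points were called. Serpinb9 is the called gene in NKT1, Fasl and Prf1 in NKT2, and Fasl, Prf1 and Nkg7 in NKT17.

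In NKT2 cells Fasl rose 6.71-fold in SKG. The SKG NKT2 libraries were at 112, 66.1 and 104 CPM against 10.0, 16.1 and 15.7 CPM in WT, far apart without overlap (log2 change 2.75, SE 0.19, edgeR adjusted p = 2.69e-09). SKG NKT2 thereby held 21.7% of the Fasl level of SKG NKT1, against 2.50% in WT. Across the 6 groups Fasl was highest in WT NKT1 and SKG NKT1, whose libraries overlapped, followed by SKG NKT2, then WT NKT2 and SKG NKT17, which overlapped, and last WT NKT17.

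Prf1 was the other gene called in NKT2, at trace levels. It had 3, 10 and 12 counts in the SKG libraries against 2, 1 and 0 in WT, in summed reads 25 against 3 (ratio 8.76, counting interval 2.67 to 45.4; edgeR log2 change 2.98, adjusted p = 0.0829). Its adjusted p ranged from 0.0193 to 0.243 over 14 alternatives, 6 of which kept the call, and it was lost without SKG replicate 2 or 3 or without any of the WT libraries. Prf1, like Gzma and Gzmb, did not pass the filter when only the NKT2 libraries were fitted. In the full model, and with a mean of at least 50 counts, it passed through its levels in other groups. Calls in NKT2 covered 7.95% of all tested genes (3.90% higher in SKG), beside 2 of the 9 here, of which Prf1 was tested only through other groups. Libraries did not overlap for 3 of the 9, Fasl, Prf1 and Ctsw, against 30.1% of all tested genes. Gzmb had a log2 change of 2.42 (SE 0.97, adjusted p = 0.169) that came mostly from SKG NKT2 replicate 3, with 84 counts against 6 and 17 in the other 2. That library also had the highest Nkg7 (41.1 CPM) of the 3. Among the NKT1 markers it was highest for Tbx21 (24.2 CPM), Cxcr3 (104 CPM), Klrd1 (4.33 CPM) and Il2rb (163 CPM). It was not highest for Ifng (2.25 CPM), Klrb1c (0.160 CPM) or Itga1 (0 CPM). WT NKT2 libraries held 18.2 to 44.5 CPM of Tbx21, 64.8 to 114 CPM of Cxcr3, 5.24 to 19.2 CPM of Klrd1 and 208 to 247 CPM of Il2rb. For none of these genes did SKG NKT2 replicate 3 lie above the WT NKT2 range. The part of these markers was not tested. Gzma was lower in SKG by 1.92 on the log2 scale without being called (adjusted p = 0.292). Ctsw, Srgn, Tnfsf10 and Serpinb9 had fitted changes between -0.30 and 0.07, none of them called. The median of the 9 was -0.11, against -0.00 over all tested genes.

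NKT17 cells showed the most called changes, with Prf1, Nkg7 and Fasl higher in SKG, 3 of the 9 tested genes against 8.37% of all tested genes (3.83% higher). Fasl was at 11.7, 9.93 and 10.3 CPM in SKG against 2.15, 2.61 and 2.33 CPM in WT (log2 change 2.17, SE 0.26, adjusted p = 7.98e-06). Prf1 was at 35.9, 21.4 and 24.2 CPM in SKG against 1.56, 4.17 and 8.50 CPM in WT (2.45, SE 0.36, adjusted p = 2.85e-04). Nkg7 was at 41.0, 13.2 and 21.2 CPM in SKG against 3.71, 1.39 and 2.33 CPM in WT (3.38, SE 0.75, adjusted p = 0.0138). For each of the 3 genes every SKG library lay above every WT library, and the call held in 15 of 15 alternatives. Libraries did not overlap for 5 of the 9 genes, against 26.9% of all tested genes, the other 2 being Gzmb and Ctsw. The Ctsw change was small (0.23, SE 0.09, adjusted p = 0.142) and Srgn went the other way (-0.36, SE 0.14, adjusted p = 0.106), neither of them called. The median over the 9 genes was 1.37, against 0.00 over all tested genes. Gzma, with 4 reads in WT and 16 in SKG, did not pass the filter when only the NKT17 libraries were fitted. It was tested through its levels in other groups, and its uncalled log2 change of 1.89 enters the median. The count of 9 and the median are thus not fully comparable with the values over all genes.

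The levels in SKG NKT17 moved beside markers of other cells. The library with the highest Nkg7, SKG NKT17 replicate 1 at 41.0 CPM, also had the highest Cd8b1, at 36.8 CPM against 12.4 and 18.4 CPM in the other 2, and Cd8b1, a CD8 chain, was itself called higher in SKG NKT17 (log2 change 1.78, SE 0.64, adjusted p = 0.0915), as was the B cell gene Cd79b (1.91, SE 0.40, adjusted p = 0.00264). Without that library the log2 change was 2.81 for Nkg7 (adjusted p = 0.0652), 2.19 for Prf1 (adjusted p = 0.00202) and 2.09 for Fasl (adjusted p = 1.11e-04). Without WT NKT17 replicate 3, the WT library with the most Prf1, the log2 change of Prf1 was 3.22 (adjusted p = 4.52e-06). The part of these markers in the result was not tested. The 6 natural killer and innate lymphoid cell markers were near 0 in NKT17, summing to 0.375 to 1.42 CPM in SKG and 0.521 to 1.17 CPM in WT, with Ncr1, Klri2 and Itgam at 0 in SKG, and 9 mast cell and granulocyte markers summed to at most 0.349 CPM. Of the 7 NKT1 markers, 1 was called higher in SKG NKT17 (Klrd1, log2 change 3.30, SE 1.01, adjusted p = 0.0594) and 1 lower (Il2rb, -0.71, SE 0.11, adjusted p = 1.39e-04). Klrd1 was near 0 in WT NKT17, at 0, 0.174 and 0.411 CPM, and at 3.25, 2.27 and 1.31 CPM in SKG NKT17. Klrd1 and the uncalled markers given here were picked after their values were seen. The sum over all 7 was 184 to 250 CPM in SKG NKT17 against 317 to 363 CPM in WT NKT17, and Il2rb made up most of it, at 155 to 204 CPM and 278 to 321 CPM. Among the others, the means in WT and SKG NKT17 were 1.88 and 5.87 CPM for Cxcr3, 0.824 and 1.37 CPM for Tbx21, 38.9 and 25.6 CPM for Klrb1c, 0.123 and 0.0625 CPM for Ifng, and 0.130 and 0.0472 CPM for Itga1, none of them called. The subset's own markers shifted too, with 1 of 6 called higher and 3 lower in SKG NKT17, against 8.37% of all tested genes called. The chemokine receptor gene Ccr6 went from 3.65 to 18.3 CPM in WT to 565 to 618 CPM in SKG (log2 change 5.62, SE 0.47, adjusted p = 5.32e-06), while Il23r, a cytokine receptor gene, fell from a mean of 454 to 244 CPM (-0.89, SE 0.15, adjusted p = 3.14e-04). The part of these shifts in the changes of Fasl, Prf1 and Nkg7 was not tested. In NKT2 the sum over the 7 NKT1 markers was 211 to 298 CPM in SKG against 301 to 424 CPM in WT. Of these markers 3 were called lower and 0 higher, against 7.95% of all tested genes called.

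Set against NKT1 of the same genotype, the genes that rose can be read beside 7 NKT1 markers. In NKT2, Fasl was at 2.50% of its NKT1 level in WT and 21.7% in SKG, while Tbx21 was at 5.15% and 3.59% and Ifng at 1.22% and 1.14%. In NKT17, Prf1 was at 1.87% of its NKT1 level in WT and 13.5% in SKG, and Fasl at 0.425% and 2.46%. Nkg7 in NKT17 was at 0.0535% in WT and 0.642% in SKG, beside Klrd1 at 0.0328% and 0.637%, Cxcr3 at 0.259% and 0.740%, Tbx21 at 0.150% and 0.285%, Ifng at 0.0564% and 0.0309%, and Itga1 at 0.0582% and 0.0223%. Of the 7 markers, Il2rb (11.1% in WT and 8.59% in SKG) and Klrb1c (87.9% and 94.9%) had higher shares in NKT17 than the other 5.

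**Figure D3:**
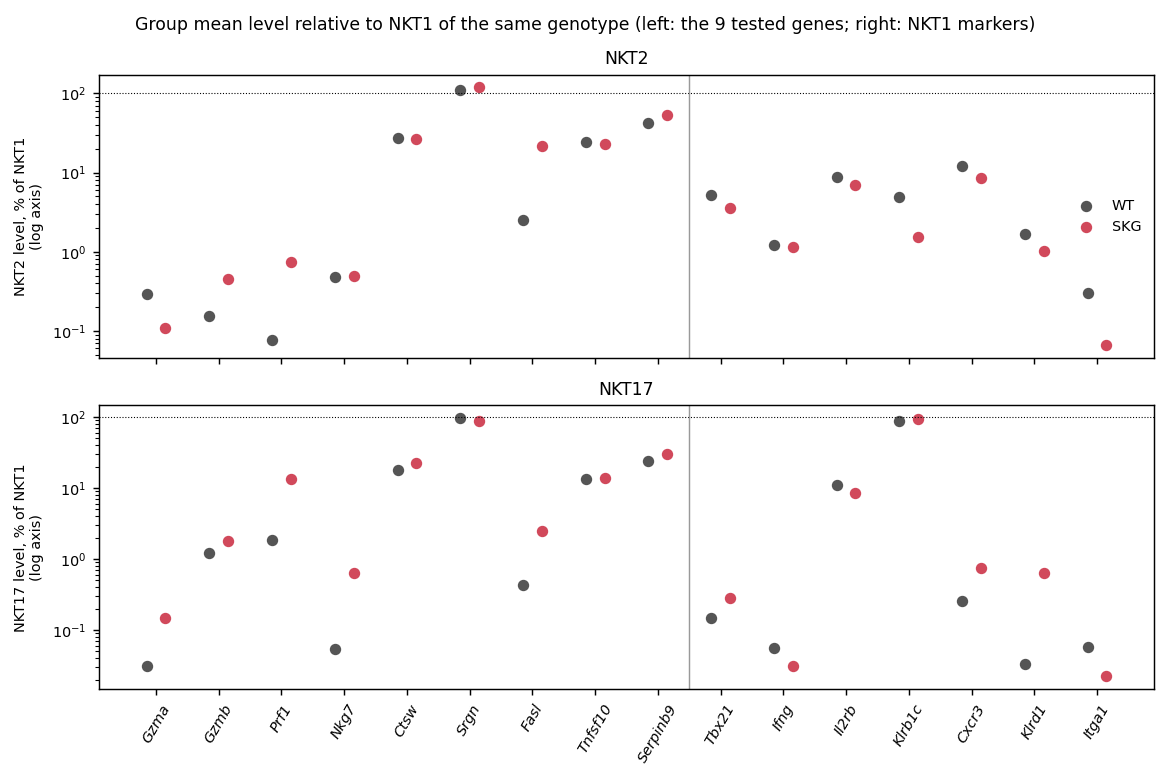
Group mean level in NKT2 (top) and NKT17 (bottom) as a percentage of the NKT1 mean of the same genotype, on log axes, for the 9 tested genes (left of the line) and 7 NKT1 markers (right), with WT in gray and SKG in red (each mean of n = 3). Fasl in SKG NKT2 is at 21.7% and Prf1 in SKG NKT17 at 13.5%, where Tbx21 is at 3.59% and 0.285%.

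Some libraries of both genotypes share a token in their titles, whose meaning the labels do not give: WT replicate 2 with SKG replicate 1, and WT replicate 3 with SKG replicate 2. Within these pairs the log2 ratio of SKG over WT for Fasl was 2.77 and 2.04 in NKT2 and 1.98 and 1.88 in NKT17. For NKT17 it was 2.96 and 1.29 for Prf1, 4.46 and 2.28 for Nkg7, and 3.65 and 0.56 for Gzmb. For Prf1 in NKT2 it was 0.78 and 2.30. All of these were above 0. For Serpinb9 in NKT1 the ratios were -0.12 and -0.78.

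The difference between subsets in the response to the SKG mutation was tested as an interaction. The change in Fasl was larger in NKT2 than in NKT1 by 3.10 on the log2 scale (SE 0.25, adjusted p = 1.20e-07) and larger in NKT17 than in NKT1 by 2.52 (SE 0.31, adjusted p = 3.86e-05), calls that held in 21 of 21 alternatives each. Prf1 changed more in NKT17 than in NKT1 by 2.78 (SE 0.46, adjusted p = 0.00270), also in 21 of 21, and by 3.54 without WT NKT17 replicate 3. Nkg7 changed more in NKT17 than in NKT1 by 3.62 (SE 0.90, adjusted p = 0.0579), a call that 12 of 21 alternatives kept, with adjusted p from 0.00327 to 0.153; it was lost without any of the NKT17 libraries except SKG replicate 2, and without any of the SKG NKT1 libraries. Called shares over all genes were 3.87% for NKT2 minus NKT1, where 1 of the 9 was called, and 4.17% for NKT17 minus NKT1, where 3 were.

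Between NKT17 and NKT2 none of the 9 genes differed in its response by edgeR's test, against 2.19% of all tested genes. An unadjusted p under 0.05 was found for 3 (Gzma, Nkg7 and Ctsw), and DESeq2 called 2. Gzma did not pass the filter when only the libraries of this comparison were fitted, and was tested through its NKT1 levels. The Fasl responses differed by -0.58 (95% interval -1.29 to 0.13). The interval for Nkg7 was 1.44 to 5.65 (log2 difference 3.55, adjusted p = 0.122), and it was called without SKG NKT2 replicate 3 (4.84, adjusted p = 0.00494) or SKG NKT17 replicate 2 (3.84, adjusted p = 0.0958). The 3 interaction tests share libraries, each SKG and WT group entering 2 of them.

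Genes that work with the 10 were read from lists of the granule, its release and its inhibitors, the death receptors, other TNF-family ligands and transcription factors of cytotoxic lymphocytes. In the granule list, 0 of 10 tested genes rose in SKG in any subset and 1, 3 and 1 fell in NKT1, NKT2 and NKT17. Over all tested genes 3.27%, 7.95% and 8.37% were called in these subsets, in either direction. Cst7, which encodes cystatin F, an inhibitor of the cathepsins that activate granzymes, fell in all 3. Its level was 287 to 371 CPM in WT NKT1 against 158 to 168 CPM in SKG NKT1, 319 to 397 against 123 to 125 CPM in NKT2, and 220 to 307 against 134 to 177 CPM in NKT17. The log2 changes were -1.05, -1.50 and -0.68 (SE 0.13 each, adjusted p = 5.07e-05, 6.50e-08 and 0.00126). Ctsd, the aspartic protease cathepsin D, fell in SKG NKT2 by 0.61 on the log2 scale (adjusted p = 4.73e-04). Medians of this list lay between -0.21 and -0.14, with those over all tested genes between -0.01 and 0.00.

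Release machinery was almost level between genotypes, beside called shares over all tested genes of 3.27%, 7.95% and 8.37% in NKT1, NKT2 and NKT17. Of 14 tested genes in each subset, 0 were called in NKT1 and in NKT17, and 1 was called in NKT2, where Stx11, a syntaxin required for granule fusion, was higher, with means of 1.11 CPM in WT and 3.44 CPM in SKG (log2 change 1.57, SE 0.46, adjusted p = 0.0363; Stx11 fell outside the rule for named genes and was picked after its value was seen). Between WT subsets, Stx11 at 20.6 CPM and Lyst, a lysosomal trafficking regulator, at 31.0 CPM were higher in NKT1 than in NKT2, at 1.11 and 5.24 CPM. Stx11 was at 29.0 to 31.3 CPM in WT NKT17, above WT NKT2 (log2 fold change 4.72, SE 0.42, adjusted p = 9.33e-09), and Rab27a, a GTPase that docks granules, was higher in NKT17 than in NKT1 (151 against 80.8 CPM, log2 fold change of NKT1 over NKT17 -0.91, SE 0.12, adjusted p = 4.29e-06).

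Of 7 other granzymes, 2 passed the filter, Gzmc and Gzmm, and neither was called between genotypes in any subset. Gzmc averaged 18.6 CPM in WT NKT1 and 19.8 CPM in SKG NKT1, and 0.519 to 1.67 CPM elsewhere.

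Among 6 serpins, Serpinb9b, the paralog of Serpinb9, fell in SKG NKT1 from 26.1 to 55.9 CPM in WT to 0.624 to 5.94 CPM in SKG (log2 change -3.46, SE 0.61, adjusted p = 0.00976), and had no reads in NKT2 or NKT17 libraries. Serpinb6a rose in SKG NKT17, from 55.0 ± 7.95 to 104 ± 27.9 CPM (0.92, SE 0.26, adjusted p = 0.0291). No serpin of the list was called in NKT2.

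On the receiving side, Fas, the receptor of Fas ligand, rose where Fasl did. Of 15 tested death receptor and signaling genes, 0 were called in NKT1, 2 in NKT2 (1 higher, 1 lower) and 2 in NKT17 (both higher). The called shares over all tested genes were 3.27%, 7.95% and 8.37%, so the list as a whole was near background. Fas was at 149 to 191 CPM in SKG NKT2 against 38.8 to 84.9 CPM in WT (log2 change 1.33, SE 0.22, adjusted p = 4.73e-04) and at 121 to 143 CPM in SKG NKT17 against 56.2 to 97.3 CPM in WT (0.73, SE 0.22, adjusted p = 0.0441). In NKT1 its mean was 72.2 CPM in WT and 60.6 CPM in SKG, and it was not called (-0.25, SE 0.22, adjusted p = 0.703). Tnfrsf1a, a TNF receptor, rose in SKG NKT17 (0.83, SE 0.16, adjusted p = 0.00184). List medians were -0.04 in NKT1, 0.05 in NKT2 and 0.14 in NKT17.

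The other TNF-family ligands moved in both directions. Of 9 tested, 0 were called in NKT1, 4 rose and 2 fell in NKT2, and 2 rose and 2 fell in NKT17. Called shares over all tested genes were 3.27%, 7.95% and 8.37% in these subsets. Tnfsf11, which encodes RANKL, fell from 92.9 to 99.7 CPM in WT NKT2 to 13.6 to 19.1 CPM in SKG NKT2 (-2.61, SE 0.27, adjusted p = 5.80e-07) and from 54.9 to 106 CPM in WT NKT17 to 6.09 to 11.8 CPM in SKG NKT17 (-3.30, SE 0.28, adjusted p = 5.33e-08). Tnfsf4, OX40 ligand, fell in NKT2 (-1.72, SE 0.38, adjusted p = 0.00496) and in NKT17 (-2.36, SE 0.47, adjusted p = 0.00202). Ltb, lymphotoxin beta, rose in NKT2 from 519 ± 82.7 to 1254 ± 143 CPM (1.27, SE 0.12, adjusted p = 1.25e-07). Cd40lg, CD40 ligand, rose in NKT2 (0.85, SE 0.10, adjusted p = 3.49e-06) and in NKT17 (0.65, SE 0.10, adjusted p = 1.21e-04), and Lta, lymphotoxin alpha, rose in both, in NKT2 from a mean of 21.6 to 76.2 CPM (1.81, SE 0.22, adjusted p = 6.22e-06) and in NKT17 from 66.2 to 118 CPM (0.84, SE 0.21, adjusted p = 0.0119). The values of Lta in NKT2 and Tnfsf4 in NKT17 fell outside the rule for named genes and were added after they were seen. The list's median was 0.85 in NKT2, 0.00 in NKT17 and 0.01 in NKT1.

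**Figure D4:**
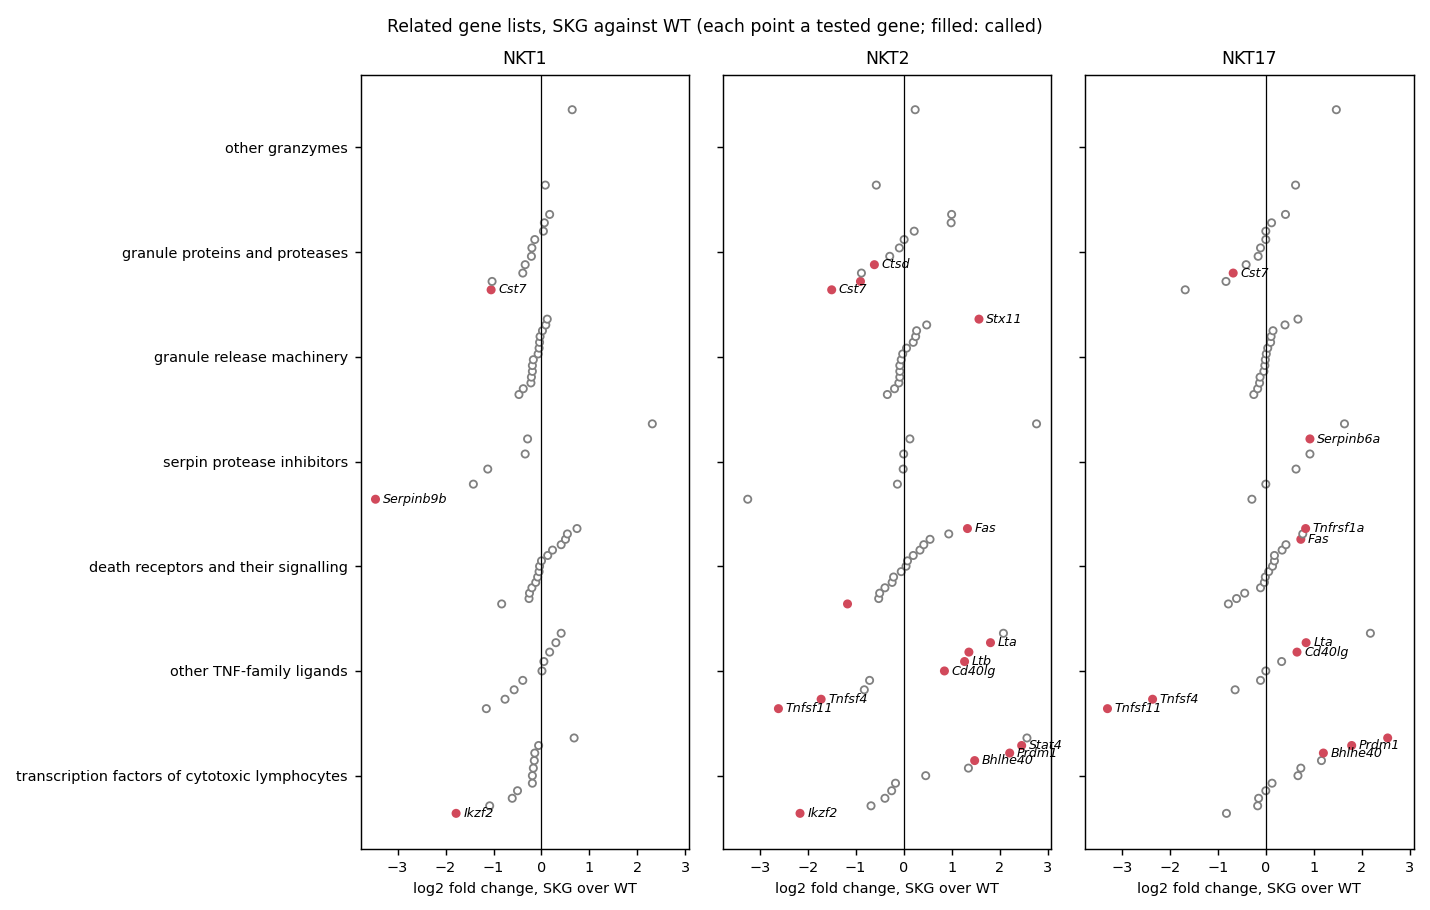
Fitted log2 fold change of SKG over WT for each tested gene of 7 related lists in NKT1, NKT2 and NKT17; filled points were called and open points were not, names mark called genes that the text describes, and within a list the genes are ordered by their change. Cst7 is lower in all 3 subsets, and Fas is higher in NKT2 and NKT17.

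Of 11 tested transcription factors of cytotoxic lymphocytes, 1 fell in SKG NKT1, 3 rose and 1 fell in NKT2, and 3 rose in NKT17, with medians of -0.19, 0.46 and 0.67. Called shares over all tested genes were 3.27%, 7.95% and 8.37% in these subsets. Prdm1, which encodes Blimp-1, rose in SKG NKT17 from 3.73 ± 2.07 to 12.8 ± 3.05 CPM (1.79, SE 0.53, adjusted p = 0.0362), and Bhlhe40 rose there from 24.3 ± 15.9 to 56.6 ± 4.27 CPM (1.20, SE 0.31, adjusted p = 0.0185). Ikzf2, which encodes Helios, fell in SKG NKT1 (-1.78, SE 0.40, adjusted p = 0.0197) and NKT2 (-2.16, SE 0.39, adjusted p = 0.00140). Tbx21 was not called between genotypes in any subset, with adjusted p = 0.902 in NKT1, 0.404 in NKT2 and 0.750 in NKT17. In WT, Stat4, the signal transducer of interleukin 12, separated the subsets in the order of Prf1, at 436 CPM in NKT1, 31.2 CPM in NKT17 and 1.49 CPM in NKT2. The order was not particular to Stat4, since Runx3, Prdm1 and Bhlhe40 were called in the same order.

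The genes whose levels ran most like those of each member over the 18 libraries were found by Pearson's r of log2 CPM, which here follows mostly the 3 subsets and is a description. Gzma and Ctsw were each other's closest match (r = 0.988), with Fcer1g next for Gzma (0.986) and Tyrobp for Ctsw (0.986). Nkg7 ran with Ccnd3 (0.982) and Klrd1 (0.976), Tnfsf10 with Ifng and Ctsw (0.975 each), and Gzmb with Tmem37 (0.981) and Hopx (0.970). Prf1 ran with Glipr2 and Gm11346 (0.981 each), and Fasl with Ms4a6b (0.977) and Ms4a6d (0.974). Serpinb9 ran with A430084P05Rik (0.962) and Klra1 (0.948). Srgn, level across subsets, had weaker matches in Sept6 (0.867) and Psme1 (0.849). Within the 9 tested genes, Gzmb and Prf1 ran closer to each other (0.95) than Prf1 did to Fasl (0.65).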

How the data were processed

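Sorted cells gave poly(A) RNA libraries by a Smart-seq2 type protocol and Nextera XT, which does not mark strand. Per the study's methods the authors removed tRNA, rRNA, adapter and low-complexity reads and aligned the rest to mm9. The submitters' processing notes name TopHat 1.4.1, Bowtie 1.0.0 and HTSeq 0.7.1 and list the builds hg19 and mm10, so the build is not settled; the values are counts per gene and rest on no coordinates here. The deposited values are raw read counts, unnormalized, for 18 libraries; 2 further count columns belong to no listed sample and were not used. The annotation the authors counted on is not given in the sources used here.

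Genes passing edgeR's filterByExpr by group (11118 of 15582 with a count) were fitted with edgeR 4.0.16 (TMM scaling, robust quasi-likelihood F test, 18 libraries in 6 groups, 12 residual degrees of freedom, common coefficient of variation 21.1%) in R 4.3.3. P-values were adjusted by Benjamini-Hochberg over all tested genes, and a call needed an adjusted p under 0.1 and a 1.5-fold change, as in the study. SE is the log2 change divided by the root of F. CPM and RPKM (per kilobase of merged mm9 exons) were computed from the counts. Ratios of genes with few reads carry exact intervals of the counting error only; since PCR copies are not told apart, these are too narrow. Alternatives were DESeq2 1.42.0, other scalings, filters and thresholds, fewer libraries, single libraries left out, and a title token as a block.

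Replicates within a group differed by more than sampling noise. Replicate numbers were given in accession order. Title tokens were checked as a pairing by the correlation of deviations from group means. For WT NKT2 and WT NKT17 the 3 same-token pairs gave 0.35, 0.24 and 0.22. For SKG NKT2 and SKG NKT17 they gave 0.09, 0.21 and 0.09. Across genotypes, the same-token pairs gave -0.00 to 0.09 for WT replicate 2 with SKG replicate 1. They gave -0.15 to 0.01 for WT replicate 3 with SKG replicate 2. Libraries of the same genotype that share a token may thus be paired, but the tests given in the text took all libraries as unpaired. The token was a block only as an alternative, and it ended no call between NKT17 and NKT2.

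From each related list the text names, per comparison, up to 2 called genes in each direction by smallest adjusted p, if the higher group averaged 50 counts or more and no libraries overlapped. The 10 genes, the lists and the tests were chosen with earlier results of these data known. A few genes of the lists are not reported here.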

Additional observations from a re-analysis of the deposited data

Results flagged for a closer look

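Each result here is a difference between subsets in the SKG change that passed edgeR's interaction test. For Fasl, the change in NKT2 (2.75) exceeded that in NKT1 (-0.36) by 3.10 on the log2 scale (adjusted p = 1.20e-07), with every SKG NKT2 library above every WT NKT2 library. For Fasl again, the change in NKT17 (2.17) exceeded that in NKT1 by 2.52 (adjusted p = 3.86e-05). For Prf1, the change in NKT17 (2.45) exceeded that in NKT1 (-0.33) by 2.78 (adjusted p = 0.00270), all SKG libraries being higher in NKT17 and lower in NKT1. For Nkg7, the change in NKT17 (3.38) exceeded that in NKT1 (-0.24) by 3.62 (adjusted p = 0.0579, 0.00327 to 0.153 over the alternatives), again with all SKG libraries higher in NKT17 and lower in NKT1. All 4 share the NKT1 libraries.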

How the results depend on the processing

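Over 108 results (9 genes in 12 comparisons) and 1774 alternatives, 1721 kept their side of the threshold, 41 lost a call and 12 gained one. The fitted change turned sign in 31, all in genes that were not called. The number of called genes moved by over 1.5 times in 4 comparisons. For SKG against WT in NKT1 (1 called), 0 were called at an adjusted p under 0.05, with a mean of at least 50 counts, with no filter, with RLE scaling and with upper-quartile scaling, 2 with only the libraries compared, and 0 to 1 without single libraries, the call being kept without WT NKT1 replicate 2. For SKG against WT in NKT2 (2 called), 1 was called at an adjusted p under 0.05, with no filter and with only the libraries compared, 4 by DESeq2, and 1 to 3 without single libraries. Prf1 was not tested in the fit of only the libraries compared. For the SKG effect in NKT2 minus NKT1 (1 called), DESeq2 and the fit of only the libraries compared called 2. For the SKG effect in NKT17 minus NKT2 (0 called), DESeq2 called 2, and 0 to 1 were called without single libraries. The causes of these moves were not tested.

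With the title token as a replicate block, 0 genes were called for SKG against WT in NKT1 (Serpinb9 at adjusted p = 0.142) and 1 in NKT2 (Prf1 at adjusted p = 0.124), and the block changed no other count. The token gave correlations from -0.15 to 0.35 over 36 same-token pairs of libraries, 12 of them over 0.1, against -0.37 to 0.22 over 99 pairs with different tokens, 15 of them over 0.1. Counts of a few reads limit Gzma outside NKT1, Prf1 in NKT2 and Gzmk throughout.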
